A study of Drosophila melanogaster with 9 samples.

Results

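Cytochrome P450 genes other than those of ecdysone synthesis were followed in the ring gland of Drosophila melanogaster larvae under 2 starvation conditions and under feeding. Members were the rows of the deposited table whose symbol starts with Cyp and a digit, without Cyp18a1 and Cyp6t3, which gave 81 of 14409 genes. The table annotates 80 of them as cytochrome P450 genes. The remaining row, Cyp1, is annotated as a cyclophilin, a peptidyl-prolyl isomerase that is no P450, so it was kept out of every P450 count and is described at the end.

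The 9 libraries form 3 groups of 3. These are w1118 larvae starved after the nutrient restriction checkpoint (post-NRC starvation), w1118 larvae starved before it (pre-NRC starvation) and feeding w1118 larvae. The feeding columns carry a time of 108 h with no stated start, and no source used here gives the age or sex of the larvae or how long they were starved. About 1200 glands, dissected in batches, went into every pool, so differences between single larvae are averaged within a pool.

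P450s are haem enzymes that add an oxygen atom to a substrate. In insects they fall into 4 clans. Mitochondrial P450s take electrons from ferredoxin and its reductase, and the CYP2, CYP3 and CYP4 clans, which sit in the endoplasmic reticulum, take them from the P450 reductase Cpr. The CYP3 and CYP4 clans hold most of the genes linked to plant toxins, insecticides and fatty acid oxidation, and many of them are most active in midgut, Malpighian tubule and fat body. By family number, the 80 genes comprised 36 of the CYP3 clan, 32 of the CYP4 clan, 9 of the mitochondrial clan and 3 of the CYP2 clan.

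Total counts per library lay between 29123939 and 36131089. Replicate 3 stood apart in every group: pairs of a group that include it differed by 302 to 609 times the counting noise, and pairs of replicates 1 and 2 by 64.9 times in feeding larvae and 180 to 218 times in the starved groups. Ring gland genes were high in every library: the summed level of 6 prothoracic gland markers was 17820 to 22875 CPM (counts scaled to library size) in post-NRC starvation, 3654 to 11190 CPM in pre-NRC starvation and 26109 to 36430 CPM in feeding larvae. Genes of several neighbouring tissues moved with the groups too, as did Akh of the corpora cardiaca, which are part of the ring gland. The 14 midgut markers summed to 1359 to 5369 CPM in post-NRC starvation, 2539 to 15670 CPM in pre-NRC starvation and 92.4 to 808 CPM in feeding larvae, and 2 of them were at 0 in all feeding libraries. The 6 Malpighian tubule markers summed to 30.3 to 44.4 CPM in post-NRC starvation, 56.8 to 246 CPM in pre-NRC starvation and 18.1 to 27.0 CPM in feeding larvae. The sums of the 8 fat body markers overlapped between groups, with 477 to 1648 CPM in post-NRC starvation, 202 to 2234 CPM in pre-NRC starvation and 650 to 1755 CPM in feeding larvae. These sums hide opposite movements of single markers. Rfabg had 132, 109 and 173 CPM in pre-NRC starvation, against 16.3 to 35.4 CPM in feeding larvae. For Apoltp the values were 61.9, 55.7 and 40.1 CPM, against 0.281 to 2.30 CPM. Lsp1beta had 1.63, 7.95 and 847 CPM, against 281 to 874 CPM. The 5 hemocyte markers had 575 to 973 CPM in post-NRC starvation, 1470 to 2598 CPM in pre-NRC starvation and at most 948 CPM in feeding larvae. The 7 muscle and aorta markers had 2143 to 4024 CPM in post-NRC starvation, 6002 to 9732 CPM in pre-NRC starvation and 4597 to 4794 CPM in feeding larvae. The oenocyte marker CG17374 had 90.8 to 133 CPM in post-NRC starvation, 153 to 202 CPM in pre-NRC starvation and 51.9 to 86.9 CPM in feeding larvae. Cyp4g1, an oenocyte gene that is itself one of the P450 genes followed, was kept out of this marker list. Unlike CG17374, Cyp4g1 had 2.55 to 5.35 CPM in post-NRC starvation, against 18.4 to 41.3 CPM in feeding larvae. Its pre-NRC libraries had 6.72, 3.53 and 121 CPM. Akh, the hormone gene of the corpora cardiaca, had 4516 to 8972 CPM in post-NRC starvation, 8439 to 17478 CPM in pre-NRC starvation and 1372 to 4680 CPM in feeding larvae. In pre-NRC starvation against feeding, 11 of 13 midgut, 5 of 6 tubule and 2 of 8 fat body markers tested were higher. So were 2 of 5 hemocyte, 4 of 7 muscle and aorta, 2 of 4 neuron, 0 of 5 tracheal and 1 of 1 oenocyte markers. Within the ring gland, Akh was higher, the corpora allata marker jhamt was not called and all 6 prothoracic gland markers were lower. Of all genes tested, 16.1% were higher and 11.5% lower. The part of other tissues in the P450 changes was not tested. In pooled tissue, fewer cells of a type and less RNA per cell cannot be told apart.

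**Figure D1:**
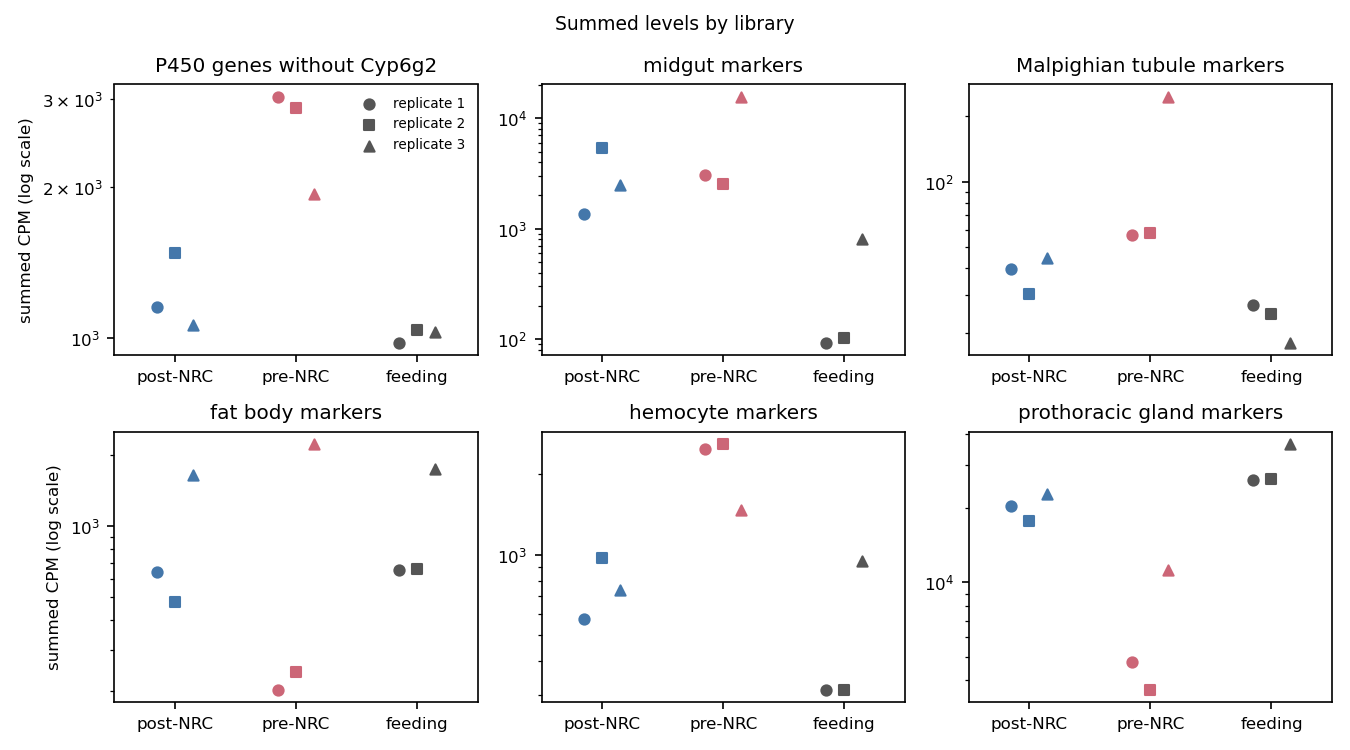
Summed CPM (log scale) in each library, in the order post-NRC starvation, pre-NRC starvation and feeding, for the 79 P450 genes other than Cyp6g2 and for 5 marker lists; point shape gives the replicate number. Pre-NRC replicate 3 had the highest midgut, tubule and fat body sums, 15670, 246 and 2234 CPM. It had the lowest P450 sum of its group, 1937 CPM. Its midgut sum was mostly Jon65Aiv (11787 CPM) and Jon65Aiii (3187 CPM). Cyp9c1, Cyp6a17 and Cyp28a5 had 256, 153 and 125 CPM there, against at least 593, 441 and 333 CPM in the other pre-NRC libraries. Among P450 genes called higher in pre-NRC starvation, it was its group's highest library for 13, lowest for 17 and between for 4. The part of other tissues in the P450 sum was not tested.

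Cyp6g2 was by far the most abundant P450 gene of the set in every library. It has been described as a juvenile hormone epoxidase of the corpora allata. Its level, in deposited FPKM (a level corrected for gene length, so that different genes can be compared), was 1757, 1873 and 1620 for post-NRC starvation, 1562, 1771 and 1138 for pre-NRC starvation and 1798, 1812 and 1034 in feeding larvae. The 3 groups overlapped, and the lowest value of each group was that of replicate 3. Its log2 change was -0.02 ± 0.32 (SE) between pre-NRC starvation and feeding (adjusted p = 0.969) and 0.23 between post-NRC starvation and feeding (adjusted p = 0.805, edgeR quasi-likelihood test for both). Cyp6g2 made up 76.9% to 79.4% of the summed P450 FPKM in post-NRC starvation, 55.8% to 58.1% in pre-NRC starvation and 70.0% to 81.6% in feeding larvae. The other 79 genes together reached 498 ± 55.4 FPKM in post-NRC starvation, 1122 ± 197 FPKM in pre-NRC starvation and 427 ± 18.8 FPKM in feeding larvae (SD, n = 3 each). All 3 pre-NRC sums, the lowest 901 FPKM, lay above all others, the highest of which was 561 FPKM.

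The order of mean FPKM over all libraries below Cyp6g2 (1596) was Cyp9c1 (145), Cyp6a17 (90.6), Cyp12e1 (60.7), Cyp28a5 (47.8), Cyp9f2 (35.5), Cyp6v1 (35.1), Cyp6u1 (26.0), Cyp6a9 (23.4) and Cyp4d2 (17.9). The gap between Cyp6g2 and Cyp9c1 exceeded the spread of either, since the lowest Cyp6g2 library had 1034 FPKM and the highest Cyp9c1 library 337 FPKM. Neighbours further down overlapped in their libraries, and the order depended on the group: Cyp28a5 had 120 ± 49.7 FPKM in pre-NRC starvation and 1.50 ± 0.396 FPKM in feeding larvae (SD, n = 3 each). Mean FPKM was at least 100 for 2 of the 80 genes, at least 10 for 15, at least 1 for 46 and under 1 for 34. Of the 10 most abundant genes, Cyp12e1, Cyp6v1, Cyp6u1 and Cyp4d2 did not pass the test in pre-NRC starvation, with log2 changes of -0.11, -0.07, -0.01 and 0.54 (adjusted p = 0.786, 0.883, 0.963 and 0.0741). Without pre-NRC replicate 3, Cyp4d2 passed at a log2 change of 0.72 (adjusted p = 0.0135).

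**Figure D2:**
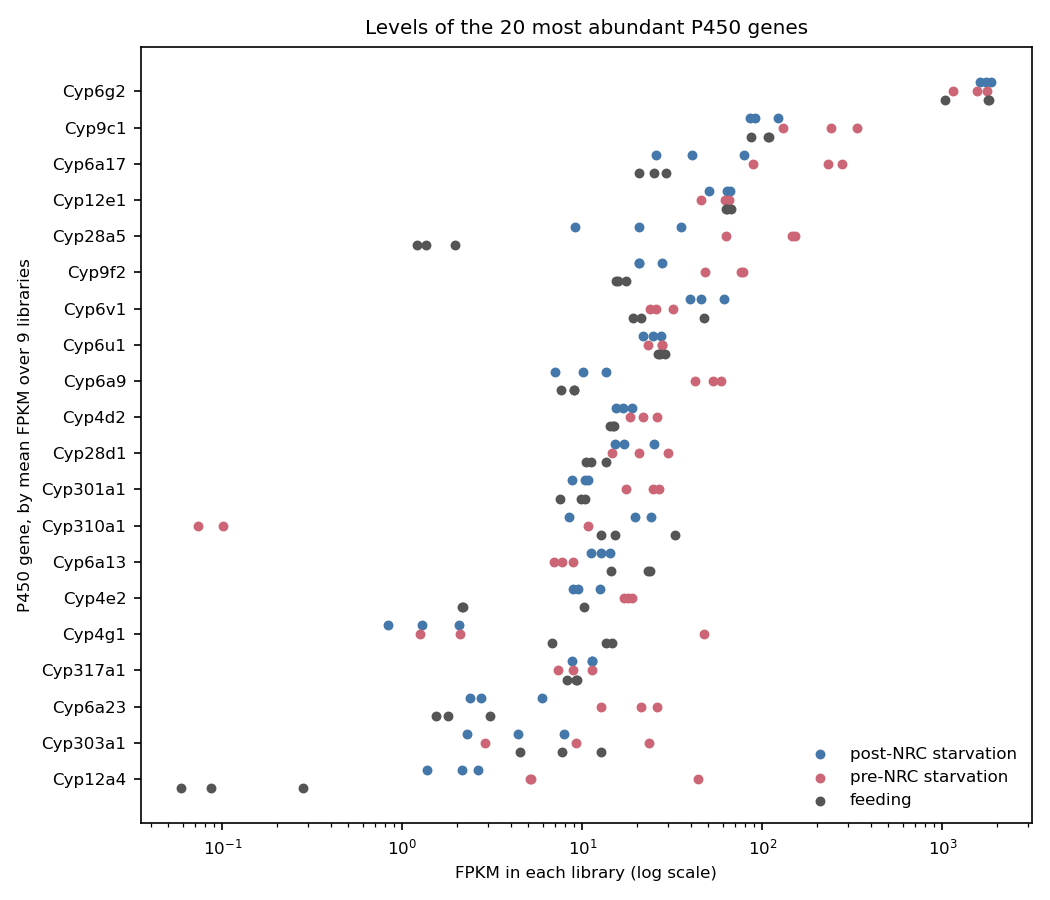
FPKM in each library (log scale) for the 20 P450 genes with the highest mean FPKM, with the 3 groups as rows of points within each gene. Cyp6g2 lies at 1034 FPKM or more in all libraries, and Cyp28a5 and Cyp6a17 show the pre-NRC points right of the others.

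In pre-NRC starvation, P450 genes of all 4 clans were higher than in feeding larvae. Of 80 genes, 69 had enough counts to be tested, and 34 of them were higher (49.3%) and 2 lower (2.90%) at an adjusted p under 0.05, against 16.1% higher and 11.5% lower among all 10883 genes tested. The median log2 change was 2.35 over the 69 genes and 0.00131 over all genes tested. Some genes pass a filter on low counts only through the group in which they are high: 13 of the 69 would have failed it without the pre-NRC libraries, and 4 of these were among the 34. Of the 39 genes at or over the filter level of 0.308 CPM in all 3 feeding libraries, 20 were higher and 2 lower, with a median log2 change of 1.27. The shares and median of all genes that meet this condition are not given, so these values have no like comparison. The pre-NRC and feeding libraries did not overlap for any of the 36 genes called. As a test on these same libraries picked the genes, this adds no support. Of all 69 genes, 46 were higher and 4 lower without overlap. The share of all genes without overlap is not given for this comparison.

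The count of 34 was sensitive to the feeding libraries in the fit. It was 22 without feeding replicate 1, 18 without feeding replicate 2 and 21 with both summed into 1 library, and all of these were among the 34. It was 29 without pre-NRC replicate 3 and 31 with replicates 1 and 2 of every group alone, of which 29 were among the 34. The genes lower numbered 4 without pre-NRC replicate 3, with Cyp4g1 and Cyp310a1 added, and 1 without feeding replicate 1, feeding replicate 2 or pre-NRC replicate 2. The calls of 17 genes, 16 higher and Cyp4g15 lower, held in every fit with 1 library left out and in every other fit that gave them an adjusted p.

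**Figure D3:**
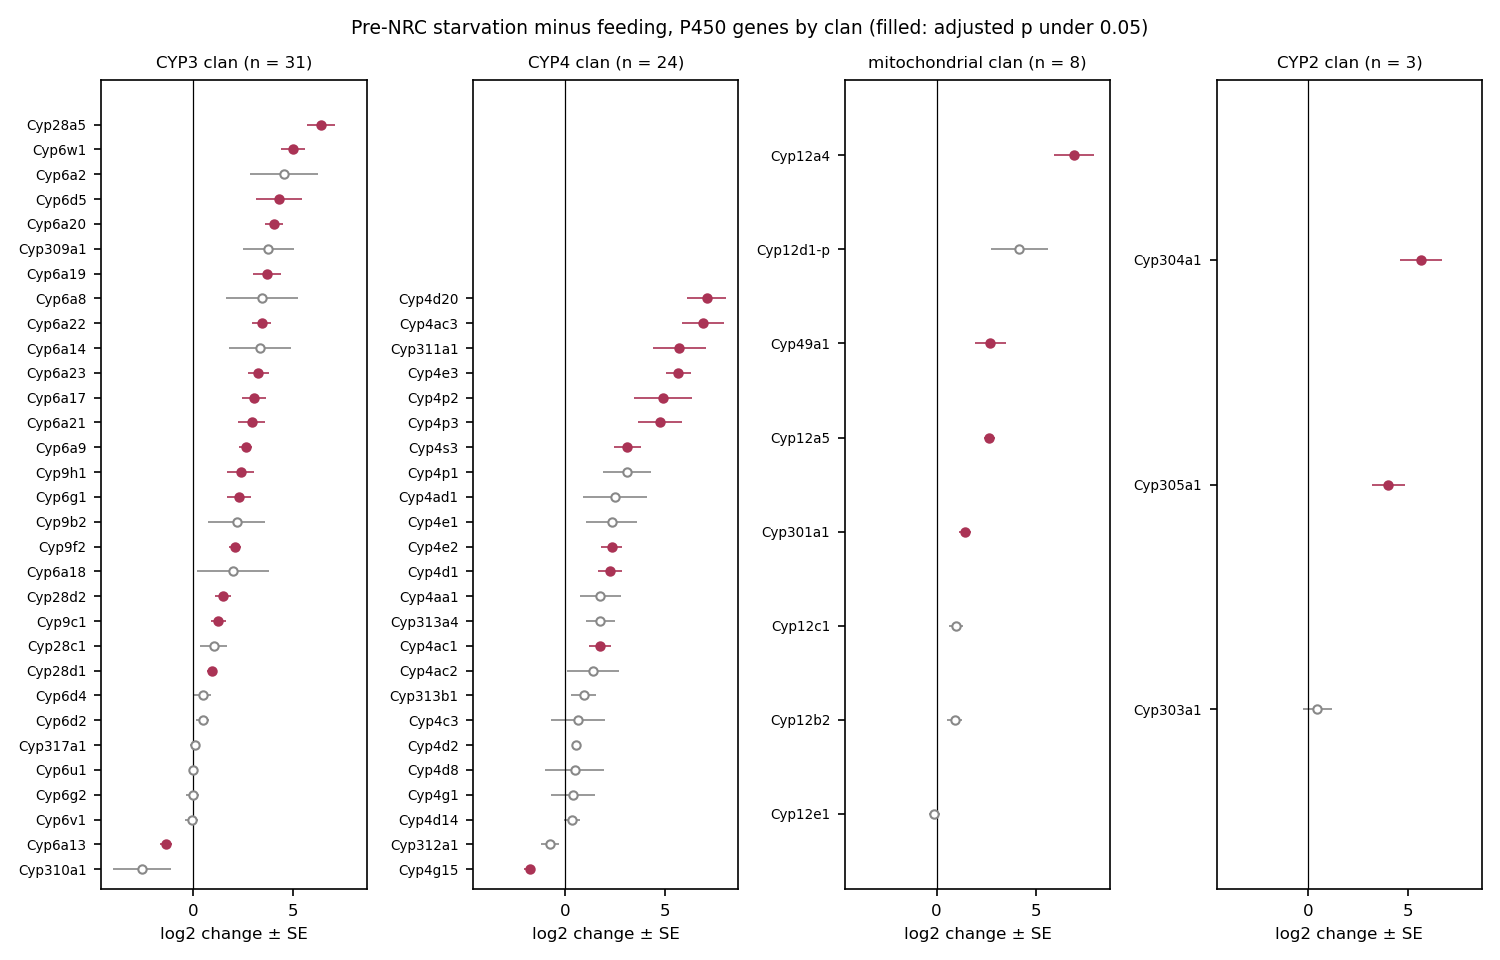
Log2 change ± SE between pre-NRC starvation and feeding for 66 P450 genes by clan, filled where the adjusted p was under 0.05; Cyp6t1, Cyp12d1-d and Cyp318a1, with 0 to 3 counts over the feeding libraries, are left out. Most points lie right of 0 in each clan, and Cyp4g15 and Cyp6a13 are the filled points left of it.

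The CYP3 clan had 17 genes higher and 1 lower of 32 tested, with a median log2 change of 2.35. This median and those of the other clans take in every tested gene, however it passed the filter. Among CYP3 genes with counts in every feeding library, Cyp28a5 rose most. It had 364, 333 and 125 CPM in pre-NRC starvation, against 3.0, 2.66 and 4.13 CPM in feeding larvae (log2 change 6.39 ± 0.70, adjusted p = 0.00133, edgeR quasi-likelihood test, as for all adjusted p values here). Replicate 3 was the lowest pre-NRC library and still far above every feeding library. Cyp28d1 and Cyp28d2, neighbours on chromosome arm 2L (5207267 to 5212445, assembly BDGP6.54), rose less, by log2 changes of 0.94 and 1.49 (adjusted p = 0.0232 and 0.0290). Cyp28d1 lost its call without feeding replicate 1 (0.0851), feeding replicate 2 (0.0780) or pre-NRC replicate 1 (0.0725), and Cyp28d2 lost its call in 4 of the 9 fits with a library left out, at up to 0.0830.

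Cyp6a genes lie largely together. On 2R, 8 P450 genes share a stretch of 31.7 kb (14871366 to 14903095), and 6 of them were higher in pre-NRC starvation: Cyp6a22, Cyp6a17, Cyp6a23, Cyp6a19, Cyp6a9 and Cyp6a20. All 6 kept their calls in every fit. Cyp6a17, known for a role in temperature preference, had 605, 441 and 153 CPM in pre-NRC starvation, against 48.4, 55.9 and 37.8 CPM in feeding larvae (log2 change 3.08 ± 0.60, adjusted p = 0.00893). Cyp6a9 had 148, 143 and 92.5 CPM in pre-NRC starvation, against 22.0, 21.9 and 17.8 CPM in feeding larvae (2.64 ± 0.31, adjusted p = 0.00180). Replicate 3 was the lowest pre-NRC library for both genes, yet above every feeding library. Cyp6a20, which has been linked to aggression in adult males, had 29.3, 17.9 and 12.1 CPM in pre-NRC starvation, against 1.00, 1.36 and 1.19 CPM in feeding larvae (4.06 ± 0.46, adjusted p = 0.00143). Cyp6a22, Cyp6a23 and Cyp6a19 changed by 3.44, 3.28 and 3.69 (adjusted p = 0.00282, 0.00459 and 0.00793). Exons of Cyp6a9 and Cyp6a19 overlap, so reads of the pair may have been shared between them.

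The remaining genes of that stretch, Cyp6a8 and Cyp317a1, did not pass. Cyp6a8, which responds to foreign compounds, had 1.06, 0.706 and 4.70 CPM in pre-NRC starvation, against 0, 0 and 0.582 CPM in feeding larvae (log2 change 3.45, adjusted p = 0.179). It passed without feeding replicate 3 (adjusted p = 0.0384), when every feeding library left was at 0, and its log2 change was 2.17 without pre-NRC replicate 3. Cyp317a1 changed by 0.08 (adjusted p = 0.829). Of the whole Cyp6a family, 7 genes were higher and 1 lower of 12 tested. The seventh, Cyp6a21, changed by 2.95 ± 0.67 (adjusted p = 0.0153), and its call was lost without feeding replicate 2 (0.0512).

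Cyp6a13 was the only CYP3 gene called lower. It had 20.6, 14.1 and 14.2 CPM in pre-NRC starvation, against 49.2, 47.6 and 28.2 CPM in feeding larvae (log2 change -1.36 ± 0.29, adjusted p = 0.0128). The 2 groups did not overlap, with feeding replicate 3 the nearest to the starved libraries. Its call was lost without feeding replicate 1 (0.0526), feeding replicate 2 (0.0506) or pre-NRC replicate 2 (0.0514).

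Outside the Cyp6a family, Cyp6w1 had 28.5, 25.2 and 22.8 CPM in pre-NRC starvation, against 0.531, 0.695 and 1.13 CPM in feeding larvae (log2 change 5.01 ± 0.62, adjusted p = 0.00229). Its 3 starved libraries were close to each other, replicate 3 included. Cyp9f2 had 203, 164 and 95.1 CPM in pre-NRC starvation, against 37.0, 38.4 and 32.8 CPM in feeding larvae (2.10 ± 0.31, adjusted p = 0.00352). Cyp9c1 and Cyp9h1, of the same family, changed by 1.27 and 2.39 (adjusted p = 0.0371 and 0.0296). Both lost their calls in most fits with 1 library left out, at adjusted p values of up to 0.127 and 0.106, so 3 of 4 Cyp9 genes tested were called higher but only Cyp9f2 without such losses.

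Cyp6g1, the gene best known for insecticide resistance, had 14.4, 9.82 and 52.4 CPM in pre-NRC starvation, against 4.0, 6.68 and 4.81 CPM in feeding larvae (log2 change 2.31 ± 0.60, adjusted p = 0.0229). Replicate 3 decided this value: without it the log2 change was 1.23 (adjusted p = 0.0288). The call was lost without feeding replicate 1, 2 or 3 (0.0836, 0.0593 and 0.0555), and exons of Cyp6g1 and Cyp6g2 overlap. Cyp6d5 had 5.97, 8.44 and 28.1 CPM in pre-NRC starvation, against 0.219, 0.0907 and 1.81 CPM in feeding larvae (4.32 ± 1.14, adjusted p = 0.0248), with losses without feeding replicate 1 (0.0815) or 2 (0.0651) and a log2 change of 6.48 without feeding replicate 3. Cyp6t1 was near the limit of detection, with 20, 13 and 15 counts in pre-NRC starvation, against 0 counts in all 3 feeding libraries. Against a floor of 3 counts over the feeding group it was at least 15.4-fold higher (adjusted p = 0.0356; with the replicate number as a block, 0.0576), and its call was lost in 6 of the 9 fits with 1 library left out, at up to 0.0887.

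In the CYP4 clan, 10 genes were higher and 1 lower of 25 tested, with a median log2 change of 2.28. Members of this clan include many fatty acid hydroxylases. Cyp4e3 had 21.2, 24.6 and 18.9 CPM in pre-NRC starvation, against 0.406, 0.665 and 0.184 CPM in feeding larvae (log2 change 5.68 ± 0.62, adjusted p = 0.00131). Its starved libraries were alike, whereas those of Cyp4ac3 were not. Cyp4ac3 had 42.0, 61.0 and 9.83 CPM in pre-NRC starvation, against 0.250, 0.272 and 0.398 CPM in feeding larvae (6.92 ± 1.03, adjusted p = 0.00366). Cyp4d20 was almost absent in feeding larvae, with 6.84, 8.84 and 2.69 CPM in pre-NRC starvation, against 0, 0.0302 and 0.0918 CPM in feeding larvae (7.10 ± 0.99, adjusted p = 0.00318). These 3 genes kept their calls in every fit.

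The other CYP4 genes called higher held less firmly. Cyp4e2, Cyp4s3 and Cyp4p3 changed by 2.35, 3.14 and 4.79 (adjusted p = 0.0148, 0.0121 and 0.0156), and each lost its call without a single feeding library: replicate 2 for Cyp4e2 (0.0533) and Cyp4s3 (0.0524), and replicate 1 for Cyp4p3 (0.0631). Cyp311a1 had 1.15, 2.09 and 3.92 CPM in pre-NRC starvation, against 0, 0 and 0.122 CPM in feeding larvae (5.74, adjusted p = 0.0155; 0.0509 without feeding replicate 1 and 0.0512 without feeding replicate 2). Its log2 change was 9.25 without feeding replicate 3, when every feeding library left was at 0, a value that depends on the prior count. Cyp4d1 changed by 2.28 (adjusted p = 0.0237), with losses without feeding replicate 1 (0.0810), feeding replicate 2 (0.0872) or pre-NRC replicate 3 (0.0510). Cyp4p2 had 0.874, 0.982 and 4.97 CPM in pre-NRC starvation, against 0.219, 0 and 0 CPM in feeding larvae (4.90, adjusted p = 0.0358; 3.61 without pre-NRC replicate 3). Without feeding replicate 1, its only feeding library above 0, the fitted value was 9.19. Cyp4ac1 changed by 1.76 (adjusted p = 0.0479), or by 2.78 without feeding replicate 3. Cyp4p2 and Cyp4ac1 lost their calls in 6 and 8 of the 9 fits with 1 library left out, at up to 0.0952 and 0.145. Within neighbour groups, Cyp4ac1 and Cyp4ac3 were called higher and Cyp4ac2, which lies between them, was not (log2 change 1.43 ± 1.31, adjusted p = 0.443). Cyp4p2 and Cyp4p3 were called higher and Cyp4p1, likewise between them, was not (3.12 ± 1.21, adjusted p = 0.0839). The pre-NRC and feeding libraries of Cyp4p1 did not overlap, so its missing call does not show that it failed to rise.

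Cyp4g15, a gene of the nervous system related to the oenocyte enzyme Cyp4g1, was lower in pre-NRC starvation in every fit. It had 5.61, 6.81 and 5.25 CPM in pre-NRC starvation, against 17.9, 20.4 and 21.8 CPM in feeding larvae (log2 change -1.76 ± 0.27, adjusted p = 0.00377). No library of the 2 groups overlapped, and replicate 3 did not stand apart. Cyp4g1, which makes cuticular hydrocarbons in oenocytes, had 6.72, 3.53 and 121 CPM in pre-NRC starvation, against 38.7, 41.3 and 18.4 CPM in feeding larvae. Its log2 change of 0.41 (adjusted p = 0.804) turned to -2.68 without pre-NRC replicate 3 (adjusted p = 0.00800) and to -0.96 with the replicate number as a block, so its direction rested on 1 library.

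The mitochondrial clan had 5 genes higher and none lower of 9 tested, with a median log2 change of 2.65. Cyp12a5 had 23.3, 21.5 and 19.7 CPM in pre-NRC starvation, against 3.22, 3.99 and 3.06 CPM in feeding larvae (log2 change 2.65 ± 0.29), and its adjusted p of 0.00128 was the smallest of all P450 genes here. Both groups were tight, and the gene kept its call in every fit. Its neighbour on 3R, Cyp12a4, linked to resistance to lufenuron, had 12.1, 10.6 and 83.5 CPM in pre-NRC starvation, against 0.156, 0.212 and 0.520 CPM in feeding larvae (6.88 ± 1.02, adjusted p = 0.00360). Replicate 3 had 7.36 times the mean of the other pre-NRC libraries, and the log2 change without it was 5.24.

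Cyp301a1, which takes part in forming the adult cuticle, had 67.6, 73.6 and 38.4 CPM in pre-NRC starvation, against 25.2, 23.8 and 17.4 CPM in feeding larvae (log2 change 1.43 ± 0.30, adjusted p = 0.0115). The groups did not overlap, and its call held in every fit. Cyp49a1 changed by 2.70 (adjusted p = 0.0326), with losses in 5 of the 9 fits with 1 library left out, at up to 0.112. Cyp12d1-p and Cyp12d1-d are near-identical copies that respond to foreign compounds, so reads may have been split between them. Cyp12d1-d summed to 113 counts in pre-NRC starvation, against 1 count in feeding larvae, a ratio of 109 with a 95% counting interval of 19.1 to 4324 (adjusted p = 0.0252; with the replicate number as a block, 0.0537; without pre-NRC replicate 3, 0.0798), and leaving out any feeding library also ended the call, at up to 0.0881. Cyp12d1-p did not pass, at a log2 change of 4.15 (adjusted p = 0.0598), with 0.0904, 0.767 and 5.89 CPM in pre-NRC starvation, against 0.125, 0.0605 and 0.184 CPM in feeding larvae. It passed without pre-NRC replicate 1 (adjusted p = 0.0353), and its log2 change was 1.77 without pre-NRC replicate 3 (adjusted p = 0.304).

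Of the 3 genes of the CYP2 clan, Cyp304a1 and Cyp305a1 were higher. Cyp304a1 had 2.62, 3.65 and 6.5 CPM in pre-NRC starvation, against 0, 0.151 and 0.0918 CPM in feeding larvae (log2 change 5.64 ± 1.07, adjusted p = 0.00793). Cyp305a1 had 16.6, 15.8 and 2.17 CPM in pre-NRC starvation, against 1.13, 0.665 and 0.367 CPM in feeding larvae (4.0 ± 0.83, adjusted p = 0.0112; with limma-voom, 0.0688). Replicate 3 was the highest starved library for Cyp304a1 and the lowest for Cyp305a1. Cyp303a1, needed for the development of bristles and external sensory organs, had 11.4, 31.7 and 73.6 CPM in pre-NRC starvation, against 15.7, 43.9 and 25.7 CPM in feeding larvae, and did not pass (0.45, adjusted p = 0.664).

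**Figure D4:**
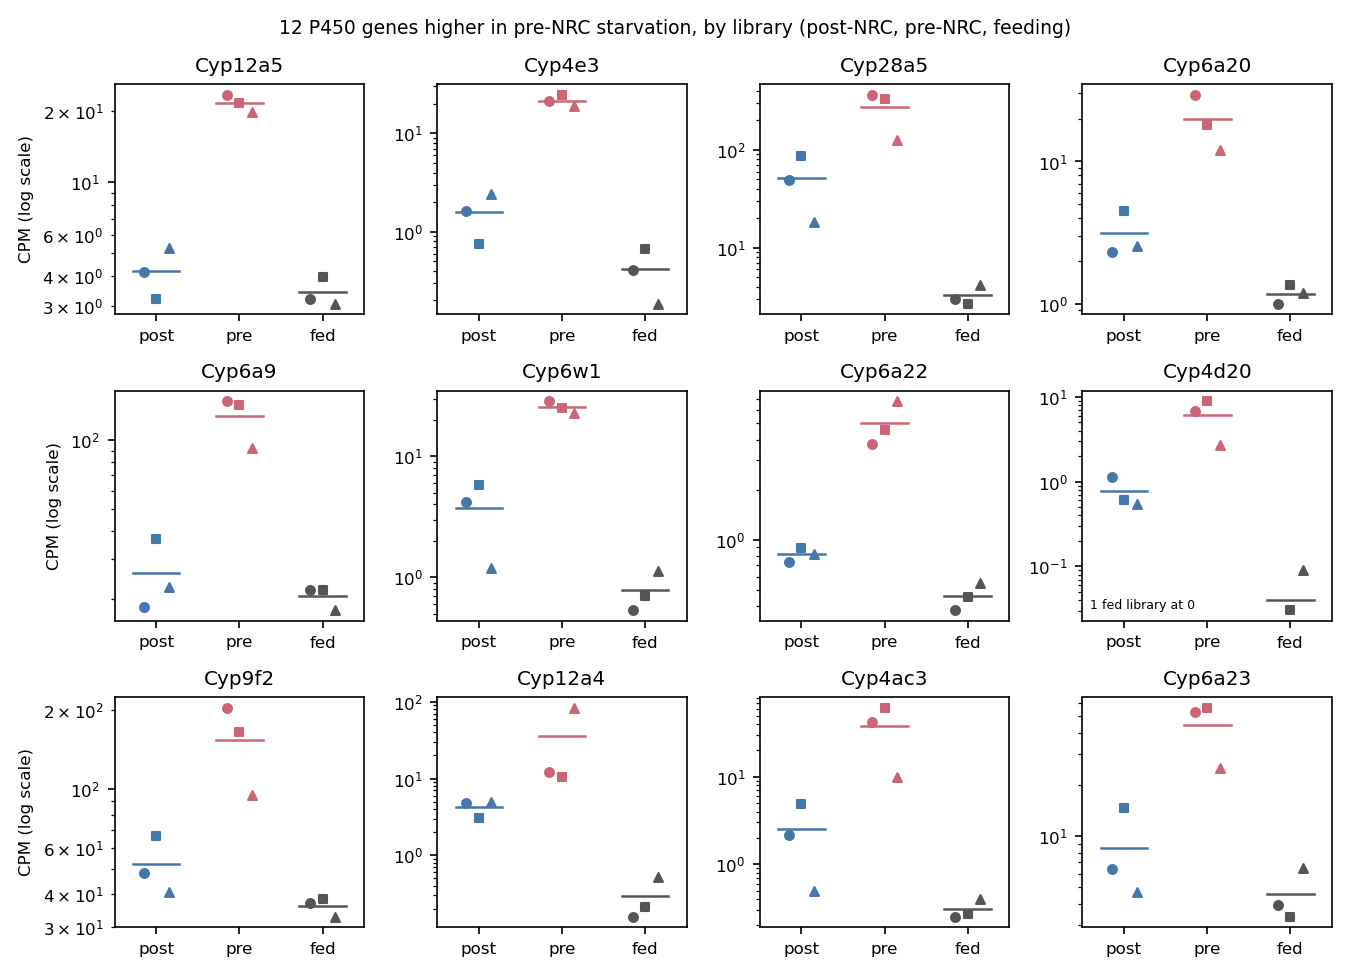
CPM in each library (log scale) for the 12 P450 genes with the smallest p among those higher in pre-NRC starvation, in the order post-NRC starvation, pre-NRC starvation and feeding; lines are group means and point shape is the replicate number (circle 1, square 2, triangle 3). All pre-NRC points lie above all feeding points in each panel, and replicate 3 of Cyp12a4 stands at 83.5 CPM above 12.1 and 10.6 CPM.

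Pre-NRC replicate 3, the library with the highest midgut and tubule marker sums, was the highest pre-NRC library for some P450 genes and the lowest for others. Among the 34 genes higher in pre-NRC starvation it was the highest pre-NRC library for 13, the lowest for 17 and between the others for 4. It exceeded 2 times both other pre-NRC libraries for 7 of the 34: Cyp12a4, Cyp12d1-d, Cyp4d1, Cyp4p2, Cyp4s3, Cyp6d5 and Cyp6g1. Of the tubule markers, Uro (56.1 CPM), NaPi-T (90.4 CPM), Irk3 (33.8 CPM), ZnT35C (25.3 CPM) and CapaR (3.19 CPM) had their highest value in this library. Dh44-R2 did not, with 45.3, 50.1 and 37.4 CPM in pre-NRC replicates 1, 2 and 3. The part of these markers in the P450 values was not tested. For another 7 genes pre-NRC replicate 3 was under 0.5 times both others: Cyp28a5, Cyp305a1, Cyp4ac3, Cyp4d20, Cyp6a17, Cyp6a23 and Cyp9c1. Among the 33 genes tested but not called, it was the highest for 16, the lowest for 13 and between the others for 4. It exceeded 2 times both others for 10 of these and was under 0.5 times both for 2. A call depends on how the replicates agree, so the 34 genes are no neutral sample. Cyp310a1 showed the largest gap among the genes not called, with 0.181, 0.215 and 20.4 CPM in pre-NRC starvation, against 26.6, 31.3 and 64.5 CPM in feeding larvae. Its log2 change of -2.55 (adjusted p = 0.211) became -7.66 without pre-NRC replicate 3 (adjusted p = 0.000634). Cyp6a2, an inducible gene known from insecticide-resistant strains, had 0.784, 0.951 and 8.58 CPM in pre-NRC starvation, against 0.0938, 0.333 and 0 CPM in feeding larvae, and did not pass (4.56, adjusted p = 0.0779). Its log2 change was 2.57 without pre-NRC replicate 3 and 6.09 without feeding replicate 2, and it passed without post-NRC replicate 3 (adjusted p = 0.0488).

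Few P450 genes passed the test between post-NRC starvation and feeding. Cyp28a5 alone was higher (1.45% of the 69 genes) and none was lower, against 0.634% and 0.175% of all genes tested. At an unadjusted p under 0.05, 16 were higher and 2 lower, and DESeq2 called 7 higher and 1 lower. The shares of all genes under these settings are not given, so these counts cannot be set against them. Cyp28a5 had 48.7, 86.1 and 18.1 CPM in post-NRC starvation, against 3.0, 2.66 and 4.13 CPM in feeding larvae (log2 change 3.96 ± 0.63, adjusted p = 0.0313). All 3 starved libraries were above all feeding libraries. The call was lost in 6 of the 9 fits with 1 library left out: without feeding replicate 1 (0.168) or 2 (0.169), pre-NRC replicate 1 (0.0564) or 2 (0.0593), or post-NRC replicate 1 (0.0908) or 2 (0.0690). The number called higher was 3 without feeding replicate 3 and 2 without replicate 3 of either starved group.

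The post-NRC and feeding libraries did not overlap for 19 P450 genes that were higher and 2 that were lower, of 69, against 13.0% and 10.3% of all genes tested, and the median log2 change was 0.62 against 0.0161. Over the 39 genes at or over the filter level in all 3 feeding libraries the median was 0.47, with no value given for all genes of that kind. Among the genes higher without overlap was Cyp12a4, with 4.79, 3.03 and 4.95 CPM in post-NRC starvation, against 0.156, 0.212 and 0.520 CPM in feeding larvae (log2 change 3.83, adjusted p = 0.0971). It passed without pre-NRC replicate 3 (adjusted p = 0.0225). With the replicate number as a block it passed (adjusted p = 0.0372), which made 2 P450 genes higher against 1.19% of all genes. Cyp4g15 had 9.22, 6.09 and 9.29 CPM in post-NRC starvation, against 17.9, 20.4 and 21.8 CPM in feeding larvae, and did not pass (-1.29, adjusted p = 0.0687). The genes lower without overlap were Cyp4g15 and Cyp4g1.

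Set directly against each other, the starved groups differed for 11 P450 genes, all lower in post-NRC starvation (15.9% of 69, against 3.29% of all genes lower and 1.90% higher). The median log2 change between post-NRC and pre-NRC starvation was -1.84 over the 69 genes and -0.0166 over all genes. It includes the 13 genes that would have failed the filter without the pre-NRC libraries, whose median of -2.45 is partly set by that filter. Over the 39 genes at or over the filter level in all 3 feeding libraries the median was -1.13, and 8 were lower. No values for all genes of that kind are given. No P450 gene was called higher, with 2 at an unadjusted p under 0.05 and none by DESeq2. Of the 11, 8 were of the CYP3 clan (Cyp28a5, Cyp6a9, Cyp6a19, Cyp6a20, Cyp6a22, Cyp6a23, Cyp6w1 and Cyp9f2), 2 of the CYP4 clan (Cyp4e3 and Cyp4ac3) and 1 was mitochondrial (Cyp12a5). Cyp12a5 had 4.16, 3.20 and 5.25 CPM in post-NRC starvation, against 23.3, 21.5 and 19.7 CPM in pre-NRC starvation (log2 change -2.35 ± 0.28, adjusted p = 0.0140). Cyp6a9 had 18.5, 36.8 and 22.5 CPM in post-NRC starvation, against 148, 143 and 92.5 CPM in pre-NRC starvation (-2.30 ± 0.31, adjusted p = 0.0190). Cyp4e3 had 1.61, 0.748 and 2.41 CPM in post-NRC starvation, against 21.2, 24.6 and 18.9 CPM in pre-NRC starvation (-3.76 ± 0.56, adjusted p = 0.0229). For each of these genes the 2 starved groups were well apart.

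The count of 11 was sensitive to single libraries. It was 0 without pre-NRC replicate 1, pre-NRC replicate 2 or post-NRC replicate 1, 3 without feeding replicate 1 or 2, 5 without post-NRC replicate 2, 6 without post-NRC replicate 3 and 17 without pre-NRC replicate 3. All 11 genes were also among the 34 higher in pre-NRC starvation than in feeding larvae, and the 2 comparisons share the pre-NRC libraries.

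**Figure D5:**
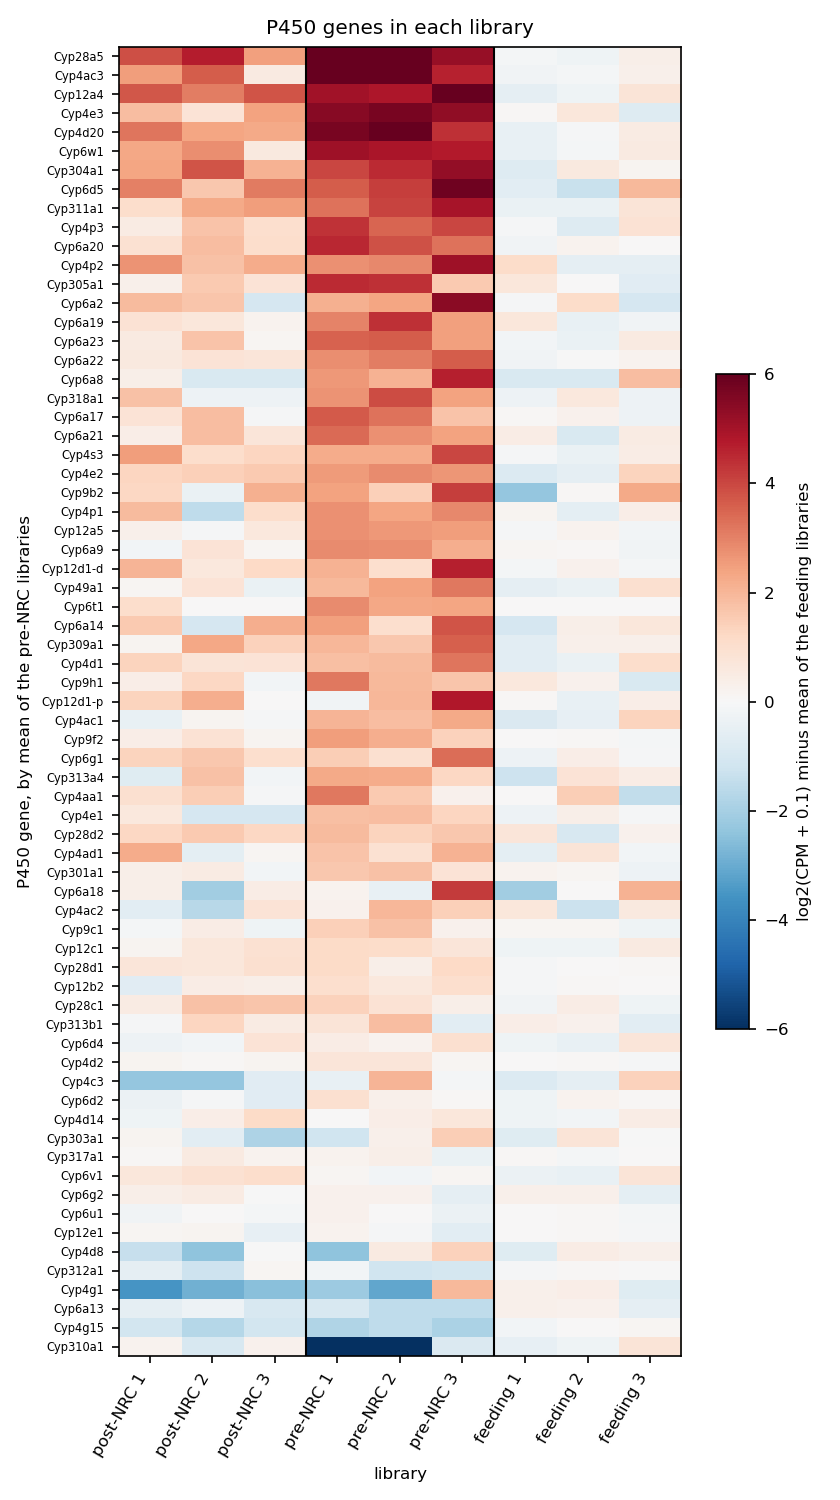
Log2(CPM + 0.1) of the 69 tested P450 genes in each library minus the gene's mean over the feeding libraries, with rows ordered by the mean of the pre-NRC libraries (colour scale ends at 6 on either side). In 39 rows all 3 pre-NRC libraries exceed 1, and in 11 rows all 3 post-NRC libraries do. The share of all genes that do so is not given, and rows near 0 CPM in feeding larvae, such as Cyp6t1, depend on the added 0.1.

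Genes too low to be tested numbered 11: Cyp308a1, Cyp309a2, Cyp313a1, Cyp313a2, Cyp313a3, Cyp313a5, Cyp316a1, Cyp4ae1, Cyp4d21, Cyp6a16 and Cyp9b1. Cyp4ae1 had 106 counts in pre-NRC replicate 3 and 0 in the other libraries, and Cyp6a16 had 255 counts there and at most 11 elsewhere. Cyp4d21, known for a role in male courtship, reached at most 35 counts. Of the 6 genes of the Cyp313 family, 2 were tested and none was called, although Cyp313a4 passed with the replicate number as a block (adjusted p = 0.0453), as did Cyp309a1 (0.0404). By position, 79 of the 80 genes were found in the BDGP6.54 annotation, and 42 of them lie in 15 groups with gaps of at most 20 kb. Exons of 20 genes overlap those of another gene, 19 of them on the other strand, and 7 of the 36 genes called in pre-NRC starvation were among these, including Cyp301a1, Cyp4s3 and Cyp9c1. No source used here states whether counting used the strand, so the values of these genes are uncertain. Another 3 genes, Cyp12a4, Cyp6a14 and Cyp6a22, overlap only an annotated transposable element insertion.

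Of 3 genes that supply P450s with electrons, 2 were lower in pre-NRC starvation, against 11.5% lower of all genes tested. Cpr, which feeds electrons to microsomal P450s, had 142 ± 14.9 CPM in pre-NRC starvation and 277 ± 32.1 CPM in feeding larvae (SD, n = 3 each; log2 change -0.96 ± 0.26, adjusted p = 0.0266). Its call was lost in 5 of the 9 fits with 1 library left out, at up to 0.0870. The reductase of the mitochondrial chain, dare, fell by 1.00 on the log2 scale (adjusted p = 0.0383), with losses in 4 such fits at up to 0.123. Glutathione transferases, which conjugate foreign compounds, had 1 gene higher and 6 lower of 29 tested in pre-NRC starvation: GstT4 changed by 1.68 and GstD1 by -1.34 (adjusted p = 0.00559 and 0.0102), against 16.1% higher and 11.5% lower of all genes tested. The calls of GstT4 and GstD1 held with any 1 library left out, whereas those of GstD9, GstD10, GstE13, GstE14 and GstT1 were lost without feeding replicate 1 or 2, at adjusted p values of 0.0595 to 0.147, and without pre-NRC replicate 2, at 0.0638 to 0.145. Among 10 UDP-glycosyltransferases tested, 3 were higher, with Ugt35a at 1.97 (adjusted p = 0.00573), and 1 was lower, beside the same shares of all genes. Ugt35a kept its call with any 1 library left out. Ugt58Fa, Ugt86Dd and Ugt86Di, at log2 changes of 1.57, 4.22 and -1.78 (adjusted p = 0.0150, 0.0292 and 0.0280), lost theirs without feeding replicate 1 or 2, at 0.0557 to 0.0996, and each in at least 1 other such fit.

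Of 12 regulators linked to P450 expression or to starvation, 3 were higher in pre-NRC starvation and none lower, against 16.1% higher and 11.5% lower of all genes tested. The forkhead factor foxo, which is active when insulin signalling is low, had 119 ± 22.8 CPM in pre-NRC starvation and 41.0 ± 12.5 CPM in feeding larvae (SD, n = 3 each; log2 change 1.54 ± 0.26, adjusted p = 0.00559). Keap1, the inhibitor of the xenobiotic response factor CncC, and the juvenile hormone receptor gce changed by 1.33 and 1.17 (adjusted p = 0.0284 and 0.0189), and both lost their calls in fits with 1 library left out, at up to 0.101 and 0.0631. The CncC gene cnc had 145 ± 64.3 CPM in pre-NRC starvation and 151 ± 68.6 CPM in feeding larvae (SD, n = 3 each; adjusted p = 0.920). The xenobiotic receptor Hr96 had 29.9 ± 1.72 CPM in pre-NRC starvation and 38.5 ± 5.79 CPM in feeding larvae (SD, n = 3 each; adjusted p = 0.271). For comparison, the ecdysone synthesis P450 genes phm, dib, sad and spok were lower in pre-NRC starvation and shd was higher, at a log2 change of 2.84 (adjusted p = 0.0110).

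Cyp1, the cyclophilin caught by the symbol rule, was lower in pre-NRC starvation. It had 307, 272 and 447 CPM in pre-NRC starvation, against 1275, 1298 and 880 CPM in feeding larvae (log2 change -1.75 ± 0.30, adjusted p = 0.00587). In post-NRC starvation it had 1080, 881 and 617 CPM, and it was higher there than in pre-NRC starvation (1.33 ± 0.30, adjusted p = 0.0439), a call lost in 6 of the 9 fits with 1 library left out. Exons of Cyp1, on the X chromosome (16317673 to 16320370, BDGP6.54), overlap those of SWIP on the other strand.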

How the data were processed

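Whole-number counts and FPKM values per gene were deposited by the authors for 9 libraries. Libraries of total RNA (miRNeasy Micro Kit) were made with a directional NEBNext kit and read as paired ends, per the labels' protocols. HISAT2, StringTie, Bowtie, Cufflinks and the build BDGP6 are named in the submitters' processing notes. No source used here gives their versions, or the tool and strand setting of the counting. The columns without a starvation term were taken as feeding.

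The members, gene lists and tests were chosen with earlier results of these data known. Genes were filtered with filterByExpr (10883 left), scaled by TMM factors and tested with edgeR 4.0.16 (quasi-likelihood, two-sided, all 9 libraries, 1 coefficient per group) in R 4.3.3, with Benjamini-Hochberg adjustment over all genes and a threshold of 0.05. The biological coefficient of variation was 50.6%. CPM used the scaled library sizes. Floors (3 counts over a group) and 95% intervals (exact, for a ratio of counts) cover counting error only. The replicates are pools called biological replicates by the submitters, and p values measure how such pools vary. Feeding replicates 1 and 2 were the closest pair, at 64.9 times the counting noise, against 180 to 609 times for the other pairs. Whether they are fully separate pools was not tested. If they are not, the p values are too small. With both summed, 21 P450 genes in place of 34 were higher in pre-NRC starvation than in feeding larvae.

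Named were up to 30 called members with the smallest p, the 10 with the highest mean FPKM and 15 with known roles, 42 in all; other called members were named after their values were seen. Same-number libraries of a starved group and feeding deviated together, with correlations of 0.1165 to 0.3018 for pre-NRC and 0.1192 to 0.2966 for post-NRC starvation. On the data alone the numbers may pair them. The pattern is mainly replicate 3 against the others: pre-NRC replicate 2 correlated at 0.1162 with feeding replicate 1 and at 0.1165 with feeding replicate 2. The main test had no replicate term, and the replicate block was an alternative. Alternatives were other scalings, DESeq2 1.42.0, limma-voom and limma (3.58.1) on log2(FPKM + 1) and log2(FPKM + 0.1), filters, 2 groups only, a replicate block, replicate 3 as a batch, feeding replicates 1 and 2 summed, each library left out and, chosen after seeing the data, replicates 1 and 2 alone. The Ugt symbol, annotated as a UDP-glucose:glycoprotein glucosyltransferase, was left out of the UDP-glycosyltransferases.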

Additional observations from a re-analysis of the deposited data

Results flagged for a closer look

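The difference between the starved groups was itself tested and passed for 11 P450 genes and for Cyp1. The log2 change between post-NRC and pre-NRC starvation was -2.35 for Cyp12a5, -2.30 for Cyp6a9, -3.76 for Cyp4e3, -2.66 for Cyp6a20, -2.62 for Cyp6a22 and -1.57 for Cyp9f2. It was -2.77 for Cyp6w1, -2.39 for Cyp6a23, -3.08 for Cyp6a19, -3.91 for Cyp4ac3 and -2.43 for Cyp28a5. Cyp1 changed by 1.33. In edgeR's quasi-likelihood test the adjusted p values ran from 0.0140 for Cyp12a5 to 0.0489 for Cyp28a5. The 3 libraries of the 2 groups did not overlap for any of the 12 genes, which were picked by this test on the same libraries. None of the 11 P450 calls held in all 9 fits with 1 library left out.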

How the results depend on the processing

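Counts are of P450 genes called. In pre-NRC starvation against feeding, 34 higher and 2 lower became 21 higher with feeding replicates 1 and 2 summed and 4 lower with replicates 1 and 2 alone. With 1 library left out the counts ran from 18 to 35 higher and from 1 to 4 lower. The replicate block left them at 34 and 2, with Cyp313a4 and Cyp309a1 (adjusted p = 0.0453 and 0.0404) in place of Cyp12d1-d and Cyp6t1. Against feeding it changed no other P450 call but that of Cyp12a4 in post-NRC starvation. In post-NRC starvation against feeding, 1 higher became 7 by DESeq2, 0 by limma-voom, with 2 groups only and with the feeding libraries summed, 2 with the replicate block or replicate 3 as a batch, and 9 with replicates 1 and 2 alone; 0 lower became 1 by DESeq2, with the batch term and with replicates 1 and 2 alone. With 1 library left out these ran from 0 to 3 and from 0 to 1. In post-NRC against pre-NRC starvation, 11 lower became 23 by DESeq2, 3 with 2 groups only or the feeding libraries summed, 19 with the batch term, 20 with replicates 1 and 2 alone, and 19 and 18 on log2(FPKM + 1) and log2(FPKM + 0.1). There 0 higher became 2 with the batch term and 3 with replicates 1 and 2 alone, and with 1 library left out the counts ran from 0 to 17 lower and from 0 to 1 higher. The numbers did not pair all of these libraries (correlations 0.0998, 0.1495 and 0.3648), and the block gave 16 lower, with Cyp301a1, Cyp9c1, Cyp4ac1, Cyp6a17 and Cyp12a4 added. All 11 genes were among those called lower by DESeq2, the batch term, replicates 1 and 2 alone and both FPKM fits.

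Genes near no change turned sign between pre-NRC starvation and feeding. Cyp6g2 went to 0.03 with RLE factors and DESeq2, 0.08 with upper-quartile factors and 0.09 with the feeding libraries summed, and ran from -0.26 to 0.20 with 1 library left out (from -0.01 to 0.37 for post-NRC starvation). Cyp12e1 was at 0.04 with replicates 1 and 2 alone, and ran from -0.31 to 0.10. Cyp6v1 was at 0.03 with upper-quartile factors and limma-voom, 0.02 with the block and the batch term, 0.36 with replicates 1 and 2 alone and 0.00 on log2(FPKM + 0.1), and ran from -0.29 to 0.42. Cyp6u1 was at 0.04 with RLE factors and DESeq2, 0.09 with upper-quartile factors and 0.07 with replicates 1 and 2 alone, and ran from -0.16 to 0.14; Cyp317a1 ran from -0.08 to 0.27. Cyp4g1 was at -1.06 by limma-voom, -0.96 with the block, -0.97 with the batch term, -2.98 with replicates 1 and 2 alone, -0.80 on log2(FPKM + 1) and -1.10 on log2(FPKM + 0.1), and ran from -2.68 to 0.96. Cyp303a1 was at -0.49 with replicates 1 and 2 alone and ran from -0.40 to 0.91. The cause was not tested. DESeq2 gave no adjusted p for Cyp12a4, Cyp6a2, Cyp4g1 and Cyp310a1.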
